A study of Mus musculus with 13 samples.

Results

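The 10 genes described here carry out receptor-mediated mitophagy and the remodelling of mitochondria: the receptors Bnip3, Bnip3l and Fundc1, the kinase Pink1, the fusion genes Mfn1, Mfn2 and Opa1, and the fission genes Dnm1l, Fis1 and Mff. They were chosen by name, and every probe set annotated to 1 of them was taken. This gave 24 of the 45037 non-control probe sets, and the genes are 10 of the 10411 tested. Signals were read in quadriceps of male C57Bl/6 mice aged 4 months on standard chow, on Affymetrix strip arrays of perfect-match probes, as log2 values in which a step of 1 is a doubling of signal. The groups were C (n = 3), SKM-KO (n = 3), Wt (n = 3) and SKM-Tg (n = 4). The study's design names loss and gain of function of DOR, an earlier name of Trp53inp2, which encodes a protein that binds Atg8 proteins and takes part in autophagy. SKM-KO was read as the ablation and SKM-Tg as the gain of function, with C and Wt as their controls. The labels spell out neither the group names nor which control belongs to which line. No promoter, Cre driver, transgene or founder line is given in the sources used here. Nothing says how the animals of a group are related, so p-values measure the spread between these arrays.

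Mitophagy is the removal of damaged or surplus mitochondria by autophagosomes. BNIP3, BNIP3L (NIX) and FUNDC1 sit in the outer mitochondrial membrane and bind Atg8 proteins directly, whereas PINK1 gathers on depolarised mitochondria and marks them with phosphorylated ubiquitin. Mitofusins join outer membranes, OPA1 joins inner membranes, and the dynamin-related GTPase encoded by Dnm1l divides mitochondria after adaptors such as MFF and FIS1 have drawn it to their surface. In skeletal muscle, with its long-lived fibres and high oxidative demand, these genes are known for their part in fasting, disuse and ageing.

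None of the 10 genes passed an adjusted p of 0.05 in any comparison, by limma with Benjamini-Hochberg adjustment over the 10411 genes. In SKM-KO minus C the test called 0.00961% of all genes, which is 1 gene, in SKM-Tg minus Wt 0%, in the difference of these effects 0.0192% and in Wt minus C 0.00961%. Over 22519 probe sets it called 0.0133%, 0%, 0.00444% and 0.0178% in the same order, and 0 of the 22 probe sets of these genes that passed the filter on dim signals. At an unadjusted p under 0.05 it counted 0, 1, 0 and 5 of the 10 genes, against 0.557%, 6.89%, 3.1% and 27.8% of all genes. The counts 1 and 5 became 0 and 2 when only the groups compared were fitted, beside 297 and 1391 of the 10411 genes. The p of Bnip3l was then 0.062 by limma. Without Wt 2 the counts were also 0 and 2, beside 583 and 976 of the 10411 genes. The values below are therefore descriptions of size and spread. Bulk muscle RNA cannot tell fewer cells of a type from less RNA per cell.

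The ablation was checked on Trp53inp2 itself. Its signal was 11.06 to 11.19 in C and 8.58 to 8.99 in SKM-KO, a difference of -2.35 (SE 0.14, 5.08-fold lower; limma adjusted p = 3.76e-06). In the arrays labelled SKM-Tg it was 11.03 to 11.28, inside the range of Wt, whose highest array read 11.46, with a difference of -0.06 (SE 0.13), so this probe set gave no sign of the gain of function, and every direction below for SKM-Tg rests on the label. Array Wt 2 stood apart: its median correlation with the other arrays over genes tested was 0.917, against 0.968 to 0.990 for the others. The first principal component of all genes tested held 62.3% of the variance and placed Wt 2 at 55.6, SKM-Tg 3 at 25.2, Wt 1 at 17.4 and SKM-Tg 4 at 11.2. The next were SKM-Tg 2 at 5.84, SKM-Tg 1 at -7.68 and Wt 3 at -12.7, and the 6 C and SKM-KO arrays lay between -17.1 and -13.8. The 10 muscle markers passed the filter, and the log2 of their summed linear signal was 15.46 to 15.66 over all arrays.

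**Figure D1:**
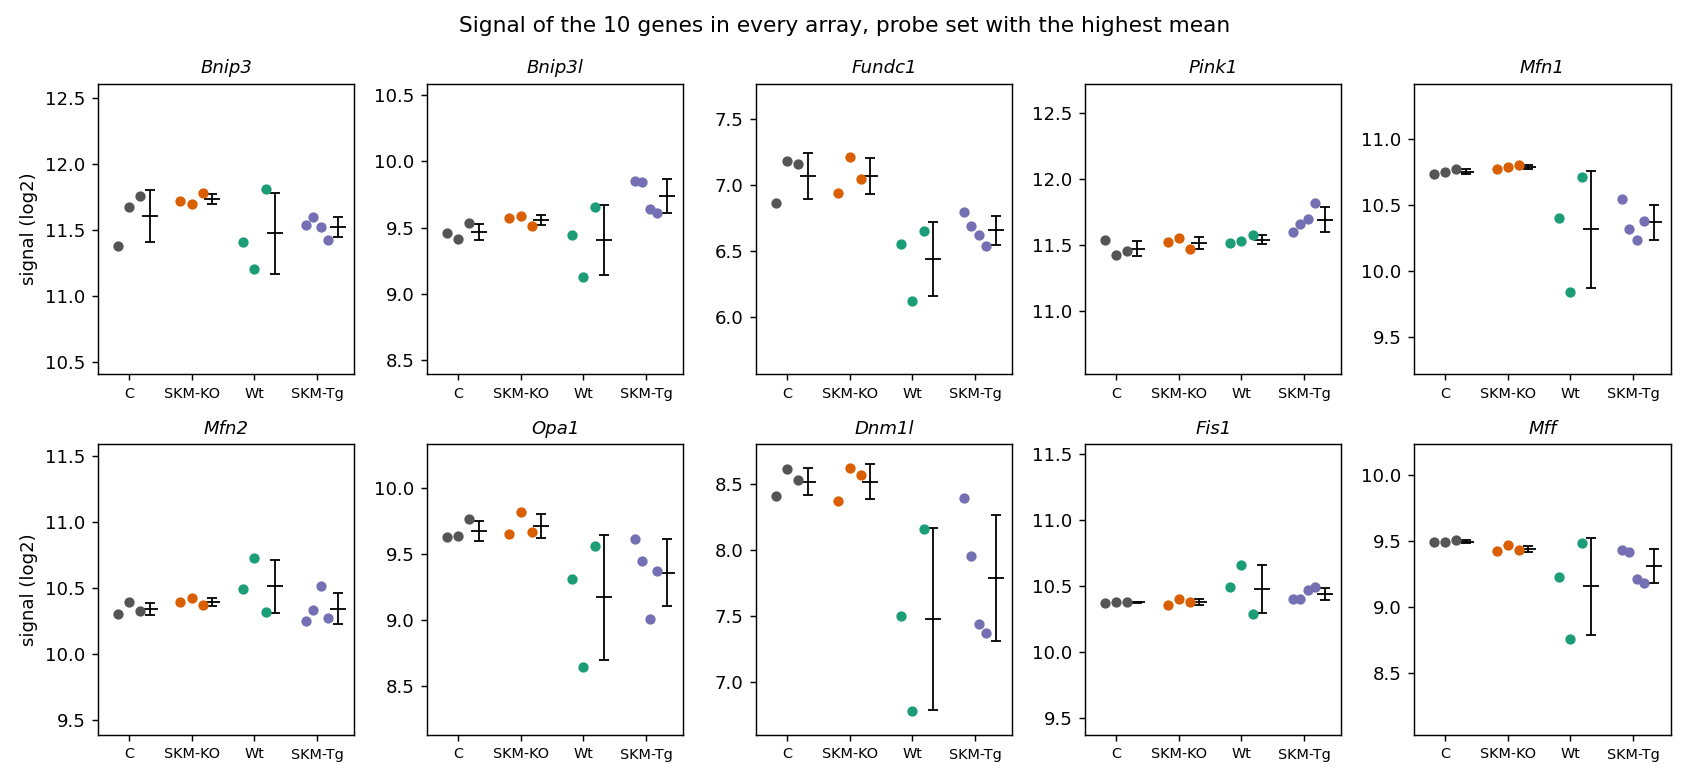
Log2 signal of each gene (y axis, 2.2 log2 units high in every panel) in the 4 groups (x axis); points are arrays, and the bars beside them are mean ± SD (n = 3, 3, 3 and 4). Dnm1l, Mfn1, Opa1, Mff and Fundc1 spread widely in Wt, with Wt 2 lowest, while C and SKM-KO lie close together.

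Among the receptors, Bnip3l stood highest in the arrays labelled SKM-Tg. Its brightest probe set read 9.46, 9.42 and 9.53 in C, 9.57, 9.59 and 9.51 in SKM-KO, 9.44, 9.13 and 9.66 in Wt, and 9.85, 9.84, 9.64 and 9.61 in SKM-Tg. Wt 3 at 9.66 lay inside the SKM-Tg range, so these groups overlapped, and Wt 2 was the lowest of all 13 arrays. SKM-Tg minus Wt was 0.33 (SE 0.12, 95% interval 0.07 to 0.59, 1.26-fold higher), with an unadjusted p of 0.0169 and an adjusted p of 0.702 by limma. SKM-KO minus C was 0.09 (SE 0.13).

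The other probe sets of Bnip3l gave a like difference. The probe set 1416923_PM_a_at read 6.73, 6.18 and 6.74 in Wt and 7.08, 7.19, 7.07 and 6.65 in SKM-Tg, a difference of 0.45 (SE 0.16). The third, 1448525_PM_a_at, read 5.55, 5.41 and 5.82 in Wt and 5.97, 6.11, 5.97 and 5.64 in SKM-Tg, a difference of 0.33 (SE 0.12). In both, SKM-Tg 4 lay below Wt 3 and the other SKM-Tg arrays lay above every Wt array. Each of these differences had an adjusted p of 0.736 by limma over all probe sets. In SKM-KO minus C the 2 probe sets were higher too, at 0.15 (SE 0.17) and 0.18 (SE 0.13), and neither was called. In 1448525_PM_a_at SKM-KO at 5.69 to 5.75 lay wholly above C at 5.49 to 5.60. Separation of this kind was seen in 4.66% of all genes by the probe set with the highest mean. These probe sets read the same RNA of the same animals and are not separate replicates.

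Without Wt 2 the Bnip3l difference was 0.19. Gene-by-gene array quality weights gave 0.34 with an adjusted p of 0.0151, but they set Wt 1 at a weight of 7.23 against 0.147 for Wt 2 and 0.23 for Wt 3, and called 14.3% of all genes.

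**Figure D2:**
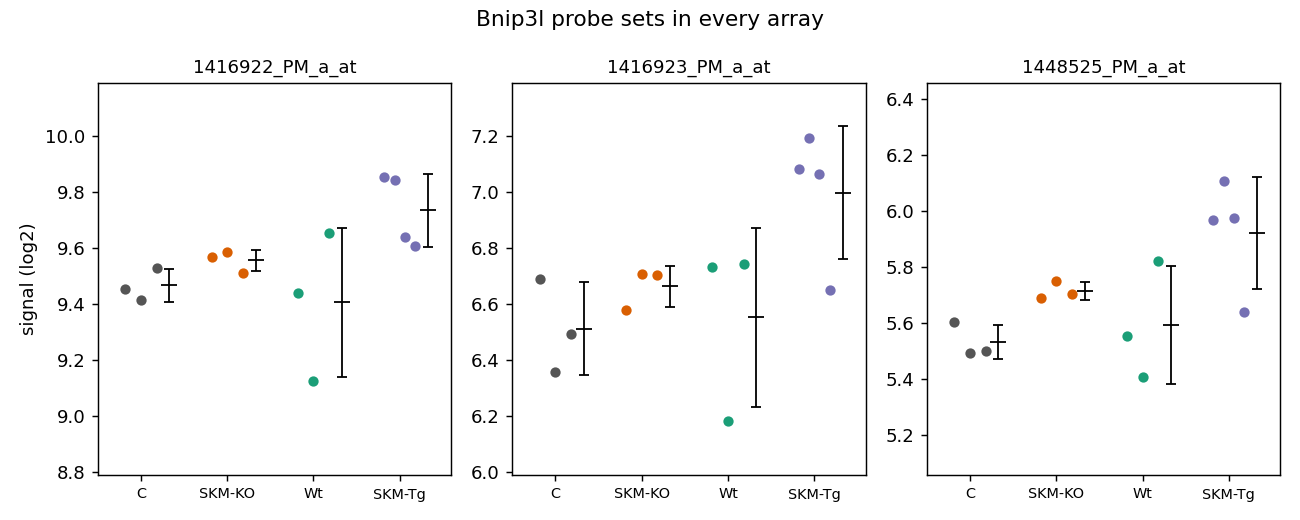
Log2 signal of the 3 Bnip3l probe sets (panels; y axis 1.4 log2 units high in each) in the 4 groups (x axis); points are arrays and bars are mean ± SD (n = 3, 3, 3 and 4). SKM-Tg lies above Wt by 0.33, 0.45 and 0.33, and at least 1 Wt array reaches the SKM-Tg range in each panel.

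Bnip3, which like Bnip3l is a target of hypoxia signalling, differed little between group means. It read 11.38, 11.67 and 11.75 in C and 11.72, 11.70 and 11.78 in SKM-KO. In Wt it read 11.41, 11.21 and 11.81, and in SKM-Tg 11.54, 11.60, 11.52 and 11.42. The 4 SKM-Tg arrays lay inside the range of the Wt arrays. The differences were 0.13 (SE 0.14) in SKM-KO minus C and 0.05 (SE 0.13) in SKM-Tg minus Wt.

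Fundc1, whose product answers low oxygen through its phosphorylation, was lower in Wt and in SKM-Tg than in C and SKM-KO. It read 6.86, 7.18 and 7.16 in C and 6.94, 7.21 and 7.04 in SKM-KO, against 6.55, 6.12 and 6.65 in Wt and 6.79, 6.68, 6.62 and 6.53 in SKM-Tg. In this probe set all 7 arrays of the latter groups lay below all 6 of the former. By the probe set with the highest mean, that was so in 3 of the 10 genes (Fundc1, Mfn1 and Opa1) and in 2.66% of all genes. It was so in 5 of the 22 probe sets of the 10 genes past the filter. The share of all probe sets was not counted, and probe sets of 1 gene are not separate evidence. The dimmer Fundc1 probe sets overlapped: in 1436278_PM_at SKM-Tg 1 at 6.84 lay above C 3 at 6.70, and in 1424215_PM_at SKM-KO 1 at 4.95 lay below Wt 1 at 5.03. Within each line the groups overlapped: SKM-KO minus C was 0.00 (SE 0.15) and SKM-Tg minus Wt 0.22 (SE 0.14). The latter was 0.06 without Wt 2. Its dimmer probe sets gave 0.19 (SE 0.37) and 0.20 (SE 0.26) in SKM-Tg minus Wt.

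Pink1 was the gene whose SKM-Tg arrays all lay above the Wt arrays. The probe set with the highest mean read 11.54, 11.43 and 11.46 in C, 11.52, 11.56 and 11.47 in SKM-KO, 11.52, 11.53 and 11.58 in Wt, and 11.60, 11.66, 11.70 and 11.82 in SKM-Tg. The gap between the groups was narrow, from 11.58 to 11.60. SKM-Tg minus Wt was 0.15 (SE 0.08, 1.11-fold higher; limma adjusted p = 0.702), and separation of this kind was seen in 1 of the 10 genes and in 1.18% of all genes, with 0 of the 10 genes separated downward against 2.79% of all genes. The other Pink1 probe set, 1451148_PM_at, read 11.35, 11.31 and 11.33 in Wt and 11.35, 11.40, 11.43 and 11.36 in SKM-Tg, a difference of 0.05 (SE 0.07) with overlapping groups. The suffix s in the name of the first, 1441937_PM_s_at, marks probes shared between transcripts, so it may not read Pink1 alone. In SKM-KO minus C the first probe set differed by 0.04 (SE 0.09).

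Among the fusion genes, Mfn1 was lowest in Wt 2, the array with the highest score on the first principal component. It read 10.74, 10.75 and 10.78 in C and 10.78, 10.79 and 10.80 in SKM-KO. The groups of this line did not overlap but met at 10.78 after rounding, and the difference was 0.04 (SE 0.17): separation upward was seen in 1 of the 10 genes and in 4.66% of all genes. In Wt it read 10.41, 9.84 and 10.72, and in SKM-Tg 10.55, 10.32, 10.24 and 10.38, a difference of 0.05 (SE 0.16). Without Wt 2 that difference was -0.19. In the dimmer Mfn1 probe sets, 1449697_PM_s_at and 1426773_PM_at, SKM-KO and C overlapped, with differences of 0.08 (SE 0.17) and 0.09 (SE 0.24). In both, Wt 3 lay above C 1, at 10.61 against 10.52 and at 8.85 against 8.59.

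Mfn2, the mitofusin that also tethers mitochondria to the endoplasmic reticulum, moved the other way in Wt 2. It read 10.30, 10.39 and 10.33 in C, 10.39, 10.42 and 10.37 in SKM-KO, 10.49, 10.72 and 10.32 in Wt, and 10.25, 10.33, 10.51 and 10.27 in SKM-Tg. SKM-Tg minus Wt was -0.17 (SE 0.10), or -0.06 without Wt 2, and SKM-KO minus C was 0.06 (SE 0.11). A second Mfn2 probe set, 1451900_PM_at, was dim at 3.83 to 4.21 and did not pass the filter.

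Opa1, the inner-membrane fusion GTPase that also shapes cristae, read 9.63, 9.64 and 9.77 in C and 9.65, 9.82 and 9.67 in SKM-KO, a difference of 0.04 (SE 0.20). In Wt it read 9.31, 8.65 and 9.56, and in SKM-Tg 9.62, 9.45, 9.01 and 9.38. The low arrays were Wt 2 and SKM-Tg 3, which have the highest scores on the first principal component. SKM-Tg minus Wt was 0.19 (SE 0.19), its other probe sets stood at -0.04 and 0.10, and without Wt 2 the first was -0.08.

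Dnm1l, the fission GTPase, had the widest spread of the 10 genes in Wt and SKM-Tg. It read 8.41, 8.62 and 8.53 in C and 8.37, 8.62 and 8.57 in SKM-KO, with a difference of 0.00 (SE 0.31). In Wt it read 7.50, 6.78 and 8.16, and in SKM-Tg 8.39, 7.96, 7.44 and 7.37. Its SD was 0.10 in C and 0.13 in SKM-KO but 0.69 in Wt and 0.48 in SKM-Tg, where the median SD of all genes was 0.0956, 0.0981, 0.253 and 0.172. SKM-Tg minus Wt was 0.31 (SE 0.29, 95% interval -0.32 to 0.94), and without Wt 2 it was -0.04. Another Dnm1l probe set, 1428008_PM_at, was dim at 2.60 to 2.84 and did not pass the filter.

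The fission adaptors differed from each other in Wt 2. Fis1 read 10.37, 10.38 and 10.37 in C, 10.35, 10.40 and 10.38 in SKM-KO, 10.49, 10.65 and 10.29 in Wt, and 10.40, 10.40, 10.46 and 10.49 in SKM-Tg. Its highest array was Wt 2, and SKM-Tg minus Wt was -0.04 (SE 0.09). Mff read 9.49, 9.49 and 9.50 in C and 9.42, 9.47 and 9.43 in SKM-KO. These groups did not overlap, with a difference of -0.05 (SE 0.15): separation downward was seen in 1 of the 10 genes and in 2.83% of all genes. In Wt Mff read 9.23, 8.76 and 9.48, and in SKM-Tg 9.43, 9.42, 9.21 and 9.18, a difference of 0.16 (SE 0.14) that was -0.04 without Wt 2.

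Set side by side, 8 of the 10 differences in SKM-KO minus C were positive, beside 54.0% of all genes. Their median was 0.04 beside 0.01 for all genes, with a range from -0.05 to 0.13. In SKM-Tg minus Wt 8 were positive, beside 37.8% of all genes, with a median of 0.15 beside -0.05 for all genes. Without Wt 2 the latter median was -0.04, beside -0.03 for all genes, with 4 of 10 positive. Without Wt 3 it was 0.28, beside -0.09 for all genes. The SKM-Tg effect minus the SKM-KO effect had a median of 0.13 beside -0.06 for all genes. For single genes it ran from -0.22 for Mfn2 (SE 0.15) to 0.31 for Dnm1l (SE 0.42), with adjusted p from 0.989 to 0.995 by limma. In SKM-KO minus C the intervals ran from -0.15 to 0.23 for Pink1 and from -0.67 to 0.67 for Dnm1l. They use the spread of all 4 groups, which is wider in Wt and SKM-Tg: a fit of SKM-KO and C alone gave Dnm1l an SE of 0.09 in place of 0.31 and Pink1 one of 0.06 in place of 0.09, and called 0 of the 10 genes.

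**Figure D3:**
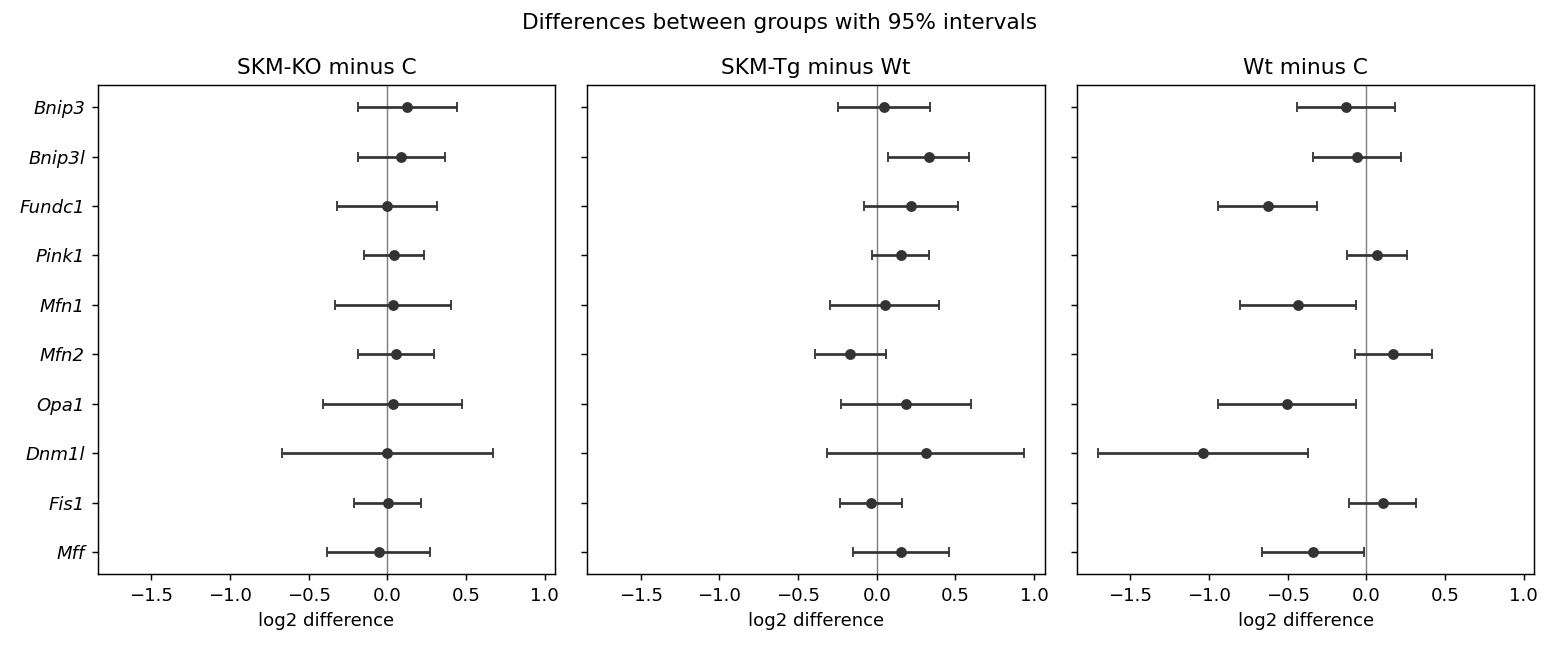
Log2 difference (x axis) of each of the 10 genes (y axis) for the ablation, the gain of function and the controls (Wt minus C); points are estimates and bars their 95% intervals from the fit of all 13 arrays. Intervals cross 0 for every gene in the first panel, for all but Bnip3l in the second, and lie below 0 for Fundc1, Dnm1l, Mfn1, Opa1 and Mff in the third.

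Wt minus C compares the control groups with each other. This comparison shares the C arrays with the ablation and the Wt arrays with the gain of function. In Wt minus C, Dnm1l stood at -1.04 (SE 0.31, 2.05-fold lower), Fundc1 at -0.63 (SE 0.15), Opa1 at -0.50 (SE 0.20), Mfn1 at -0.43 (SE 0.17) and Mff at -0.34 (SE 0.15). By the probe set with the highest mean, all Wt arrays lay below all C arrays in each of these 5 genes, against 8.51% of all genes. By the same reading 0 of the 10 genes lay wholly above, against 15.4%. The adjusted p of the 5 genes ran from 0.144 to 0.170 by limma. The other genes stood at 0.17 for Mfn2, 0.10 for Fis1, 0.07 for Pink1, -0.06 for Bnip3l and -0.13 for Bnip3. The median of the 10 was -0.23 beside 0.06 for all genes.

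The probe sets of these genes past the filter gave differences of the same sign, though in the dimmer Mfn1 ones Wt and C overlapped. The 3 bright ones of Dnm1l stood at -1.04, -1.06 and -0.71 in Wt minus C, those of Fundc1 at -0.63, -0.94 and -0.66, those of Mfn1 at -0.43, -0.37 and -0.55, and those of Opa1 at -0.50, -0.25 and -0.31. Without Wt 2 Dnm1l stood at -0.69, Fundc1 at -0.47, Opa1 at -0.24, Mfn1 at -0.20 and Mff at -0.14, and the median of the 10 genes was -0.07. Without Wt 3 it was -0.40, and limma then called those same 5 genes, with adjusted p of 0.00572 for Dnm1l, 0.00599 for Fundc1, 0.00821 for Mfn1, 0.0139 for Mff and 0.0165 for Opa1, along with 4119 of all genes. Gene-by-gene array weights called 7 of the 10, all but Bnip3l, Pink1 and Fis1, and 55.6% of all genes.

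The genes took different courses along the first principal component. In Wt 2, which has the highest score, 7 of the 10 genes had their lowest signal of all arrays, against 23.8% of all genes, and Mfn2 and Fis1 had their highest, against 39.3%. Pink1 had neither. With the score of each array as a covariate, chosen after seeing the data, Wt minus C had a median of 0.01 over the 10 genes, Dnm1l stood at -0.24 and Fundc1 at -0.35. With it, Bnip3l stood at 0.24 in SKM-Tg minus Wt with an adjusted p of 0.249 by limma. The 10 genes are themselves among those that set the score, and what sets the order of the arrays was not tested.

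**Figure D4:**
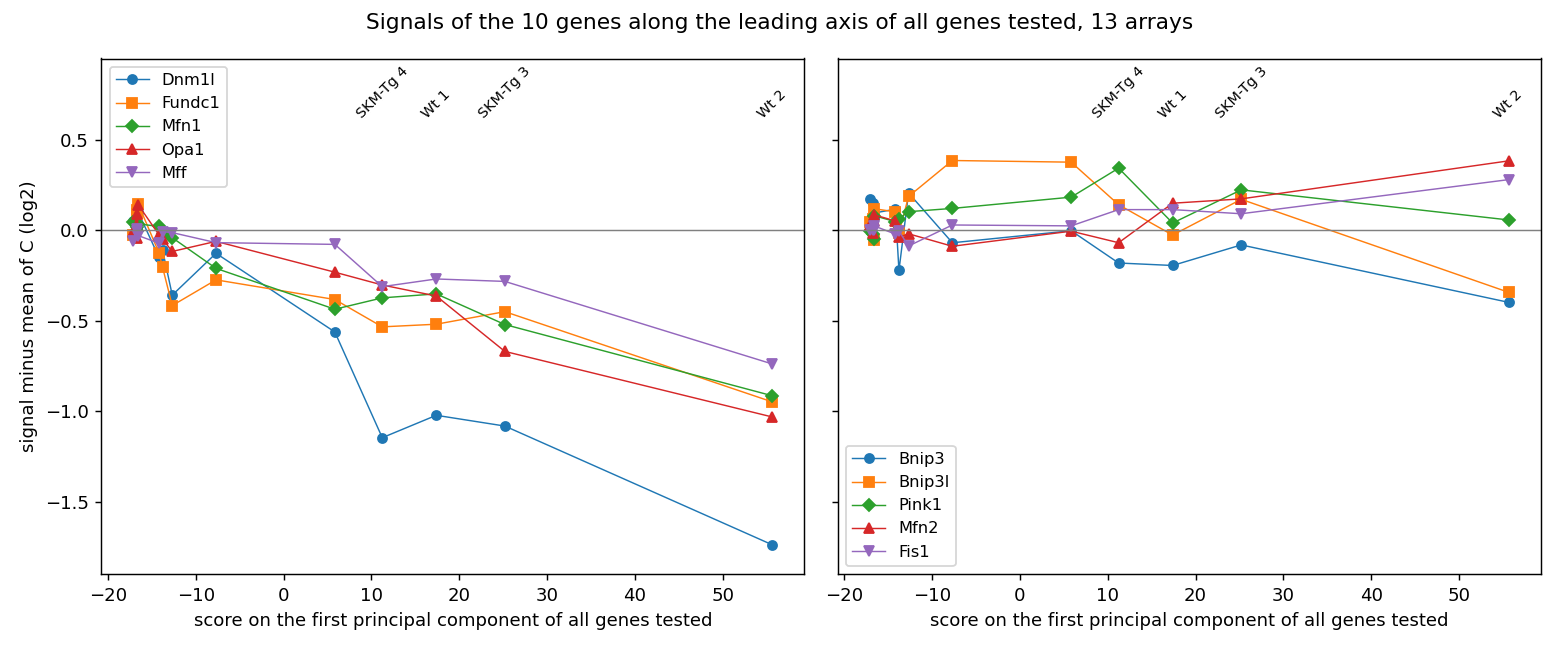
Log2 signal minus the mean of C (y axis) against the score of each array on the first principal component of the 10411 genes (x axis); points are the 13 arrays and lines join them in order of score. The 5 genes on the left are those whose Wt arrays all lay below all C arrays. In Wt 2 they stand between -1.74 and -0.74, and the 5 on the right stay between -0.40 and 0.39 in every array.

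Markers of other cells also stood higher or lower by group. Of all genes, 54.0% were positive in SKM-KO minus C, 37.8% in SKM-Tg minus Wt and 58.8% in Wt minus C. Summed signals below are the log2 of the linear signals added up. They take in every marker on the array, dim ones included: 8 of macrophages, 5 of fat and 7 of fibroblasts. The 7 endothelial markers were all lower in SKM-Tg than in Wt, with a median of -0.30 and a summed signal of 11.25 to 11.85 against 11.70 to 11.99. The 4 fat markers tested were all higher, with a median of 0.46 and summed signals of 12.60 to 12.95 against 12.45 to 12.88. Of the 7 macrophage markers tested 6 were lower (9.10 to 9.82 against 9.52 to 9.71), as were 4 of the 5 fibroblast markers (11.66 to 12.18 against 11.85 to 12.45) and all 3 blood markers (11.98 to 12.42 against 12.10 to 12.71). In SKM-KO minus C the 5 liver markers were all lower, with summed signals of 7.23 to 7.57 against 7.67 to 9.63, and the 4 Schwann cell markers all higher, at 9.41 to 9.94 against 9.23 to 9.36. The 7 macrophage markers tested (9.71 to 9.96 against 9.49 to 9.75) and the 4 fat markers (12.86 to 12.95 against 12.80 to 12.89) were higher there too. For fat this rested mainly on SKM-KO 2. Adipoq read 8.20 in that array, 4.75 and 4.49 in SKM-KO 1 and SKM-KO 3, and 5.56, 4.80 and 5.34 in C. Retn read 7.59 against 6.53 and 6.31, and Fabp4 differed by 0.00 (SE 0.14) and Lpl by 0.04 (SE 0.14). In Wt minus C the 4 Schwann cell markers (9.60 to 9.87 against 9.23 to 9.36) and 3 blood markers (12.10 to 12.71 against 11.83 to 12.10) were all higher and the 5 liver markers all lower (7.26 to 8.39 against 7.67 to 9.63), with medians of 0.34, 0.42 and -0.59. The 7 macrophage markers tested were split there, with 4 higher and 3 lower and a median of 0.13. Cd163 stood at -1.07, whereas Cd68 read 5.57, 5.61 and 5.28 in C and 6.40, 6.46 and 6.22 in Wt. The 7 endothelial markers were split too, with 4 higher and 3 lower and a median of 0.09. Cldn5 among them had a 95% interval of 0.32 to 1.69. No marker passed the adjusted threshold in these comparisons, and the part of these cells in the values of the 10 genes was not tested.

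The wider pathway was followed in 87 further genes, of which 73 passed the filter. None was called in any comparison by limma, and 1, 5, 1 and 22 had an unadjusted p under 0.05 for the ablation, the gain of function, the difference of effects and the controls in turn. These are 1.37%, 6.85%, 1.37% and 30.1% of the 73, beside the 0.557%, 6.89%, 3.1% and 27.8% of all genes. Of the regulators of the receptors, all 8 tested were positive in SKM-KO minus C, beside 54.0% of all genes. Their median was 0.12 beside 0.01 for all genes. Fbxl4, an F-box protein that keeps BNIP3 and BNIP3L low, read 5.77, 5.86 and 5.90 in C and 6.16, 6.33 and 5.99 in SKM-KO, a difference of 0.31 (SE 0.12). The groups did not overlap, and the unadjusted p was 0.0241, with no call after limma's adjustment over all genes. Separation upward of this kind was seen in 4.66% of all genes. Foxo3, a transcription factor that drives Bnip3 in muscle, stood at 0.22 (SE 0.15).

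In SKM-Tg minus Wt the smallest p-value of these genes was that of Miga2, a mitoguardin that promotes fusion. It read 6.50, 6.96 and 6.38 in Wt and 6.00, 6.17, 6.03 and 6.06 in SKM-Tg, so the groups did not overlap. Separation downward of this kind was seen in 2.79% of all genes. The difference was -0.55 (SE 0.14, adjusted p = 0.565 by limma), and the SKM-Tg effect minus the SKM-KO effect was -0.53 (SE 0.20, adjusted p = 0.989). Of the 6 other receptors tested, Bcl2l13 stood at -0.31 (SE 0.14). Of the 11 genes of ubiquitin-driven mitophagy, Usp30, a deubiquitinase that opposes it, stood at -0.32 (SE 0.14) and the ligase Mul1 at -0.32 (SE 0.16). The adaptor Trak2, which links mitochondria to motors, stood at -0.31 (SE 0.14), and Mief1, which recruits the fission GTPase, at -0.26 (SE 0.11). In Bcl2l13, Usp30, Mul1 and Mief1 the groups overlapped and Wt 2 was the highest of all arrays. Among the 2 smallest p-values of each list, Rhot1 (0.34), Tfam (0.23), Marchf5 (0.19), Fundc2 (0.18) and Stoml2 (0.17) went the other way. Of the 73 genes 30 were positive and 43 negative, beside 37.8% positive of all genes. The 4 Atg8 genes tested were all negative with a median of -0.10, and the 14 genes of mitochondrial content had a median of -0.04, beside -0.05 for all genes.

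In Wt minus C, the outer-membrane carrier Slc25a46 stood at -1.20 (SE 0.43) and the mitoguardin Miga1 at -0.70 (SE 0.19), beside Dnm1l and Opa1. Slc25a46 read 8.62, 8.72 and 8.77 in C against 7.58, 6.28 and 8.66 in Wt, with Wt 2 again the lowest. Bcl2l13 stood at 0.55 (SE 0.15), Nlrx1 at 0.74 (SE 0.30) and Usp30 at 0.49 (SE 0.15) in the other direction. Wt 2 was the highest array in each. Nlrx1 read 7.50, 8.54 and 6.89 in Wt against 6.89, 6.97 and 6.86 in C, so these groups overlapped.

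For each gene the most similar of 10401 others over the 13 arrays was found by Pearson's r, as a description with no test. Dnm1l was most like Bnip2 (r = 0.99), Mfn1 like Tnks2 (r = 0.99), Opa1 like Tmed2 (r = 0.99) and Mff like Tyw5 (r = 0.99). Fundc1 was most like Slc25a15 (r = 0.97), Mfn2 like Sugp2 (r = 0.97), Fis1 like Ints9 (r = 0.96), Bnip3 like Luc7l (r = 0.94), Pink1 like Ubd (r = 0.93) and Bnip3l like Ryk (r = 0.92). These arrays share the order on the first principal component, which many genes follow.

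Promoter sequences are shown for 3 genes that were low together in Wt 2 and for Bnip3, which held the most motif matches. They are the 250 bases before a transcript start, from RefSeq on GRCm38.p6, which had entries for 9 of the 10 genes and 14 promoters in all. Capitals mark motif matches on either strand.
Dnm1l, the upstream of 2 starts, chr16:16359032-16359281, minus strand: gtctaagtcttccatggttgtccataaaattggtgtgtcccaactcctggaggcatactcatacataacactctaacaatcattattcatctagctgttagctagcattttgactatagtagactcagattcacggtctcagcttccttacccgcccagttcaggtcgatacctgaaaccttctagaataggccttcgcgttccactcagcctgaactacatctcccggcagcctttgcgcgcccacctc
Mfn1, chr3:32529232-32529481, plus strand: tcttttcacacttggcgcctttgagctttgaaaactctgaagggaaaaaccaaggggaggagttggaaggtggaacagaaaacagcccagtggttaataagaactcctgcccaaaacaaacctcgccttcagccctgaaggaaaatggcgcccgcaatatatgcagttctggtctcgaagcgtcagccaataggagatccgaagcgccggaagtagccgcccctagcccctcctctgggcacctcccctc
Opa1, chr16:29579084-29579333, plus strand: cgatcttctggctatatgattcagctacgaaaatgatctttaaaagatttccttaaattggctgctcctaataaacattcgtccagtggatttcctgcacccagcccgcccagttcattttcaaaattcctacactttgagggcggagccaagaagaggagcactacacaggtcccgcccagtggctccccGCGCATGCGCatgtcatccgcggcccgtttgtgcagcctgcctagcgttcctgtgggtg
Bnip3, chr7:138909507-138909756, minus strand: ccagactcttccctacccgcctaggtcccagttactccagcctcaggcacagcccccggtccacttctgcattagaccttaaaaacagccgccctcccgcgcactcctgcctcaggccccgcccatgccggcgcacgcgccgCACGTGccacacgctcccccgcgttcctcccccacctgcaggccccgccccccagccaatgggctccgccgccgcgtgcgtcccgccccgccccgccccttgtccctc

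Of 5 motifs searched over 300 bases around the start on both strands, the hypoxia response core ACGTG was in the promoters of Bnip3 and Mfn2 and in 19.62% of 32851 mouse promoters. The E-box CACGTG, which contains ACGTG on each strand, was in Bnip3 and in 7.15% of promoters. The NRF1 core GCATGCGC was in Opa1, where matches on both strands overlap, and in 2.712% of promoters. The ERR motif AAGGTCA and the FoxO motif GTAAACA were in 4.718% and 3.65% of promoters and in 0 of the 14 of these genes. The motifs were settled with the sequences in view, and a match in letters says nothing of whether a factor binds there.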

How the data were processed

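The deposited values are log2 signals that the authors made with RMA, per the submitters' processing notes; its version, scan dates and batches are not given in the sources used here. They ran from 2.14 to 13.21. Amplified biotin-labelled RNA came from 25 ng of total RNA per array, per the labels. Of 45141 probe sets, 104 controls were set aside; 28898 of the rest had 1 symbol, 551 several and 15588 none in the annotation used here. A gene took its probe set with the highest mean; the filter was 4.90, the median of probe set means.

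All 13 arrays were fitted in limma 3.58.1 (R 4.3.3) with 1 mean per group, two-sided tests and Benjamini-Hochberg adjustment at 0.05 (9 residual and 3.62 prior degrees of freedom). Intervals are 95% intervals, and errors are standard errors of the fit (SE) unless marked SD. The number of arrays limits the precision. Array numbers are accession order and pair nothing. The fit was run on simulated data with independent noise of equal spread in all groups and no component shared between genes. That run cannot show how the fit behaves with the unequal spreads and shared component of these arrays.

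The genes, lists and tests were chosen with earlier results of these data known. Named genes were all 10, Trp53inp2 and the most similar gene of each of the 10. Pathway genes named were taken from the 2 smallest p-values of each list per comparison, and not all of those are named. Pathway and marker genes with no symbol here were not analysed. Alternatives were other normalizations, filters, probe set rules, eBayes settings, array weights, separate fits and each array left out. A further 3, chosen after seeing the data, were the first principal component as a covariate, 4 arrays left out, and array weights by the default method.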

Additional observations from a re-analysis of the deposited data

Results flagged for a closer look

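In the probe set 1424215_PM_at of Fundc1, the lowest of the 4 SKM-Tg arrays, SKM-Tg 3 at 4.45, lay far from the other arrays of its group at 4.99 to 5.10. In the probe set 1449697_PM_s_at of Mfn1, SKM-Tg 1 at 10.37 lay far above the others at 10.11 to 10.14. These are 2 of the 24 groups of 4 arrays examined by Dixon's criterion, and chance gives about 1 in 20. Neither probe set is the one that stands for its gene in the tests over genes.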

How the results depend on the processing

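The count of the 10 genes called stayed at 0 in SKM-KO minus C and in the difference of effects under every alternative run. Of all genes, at most 0.0213% were called in SKM-KO minus C, with the mean of the probe sets. In the difference of effects at most 2.18% were called, with gene-by-gene array weights. In SKM-Tg minus Wt the count of the 10 genes was 1 (Bnip3l) and in Wt minus C 7 with gene-by-gene array weights, and the counts of probe sets were 4 and 17. The plan named no method for the weights. The default method of the tool was run first; its fit over genes did not converge and gave Wt 1 a weight of 2.16e-06, and the gene-by-gene method was taken after that was seen. With the default method 0 of the 10 genes and 0 of all genes were called in SKM-Tg minus Wt (77 unadjusted) and in Wt minus C (490 unadjusted). In the fit over probe sets, 7 and 17 of those of the 10 genes were called. How many of all probe sets were called was not counted for either kind of weights. The probe set counts can therefore not be read as particular to these genes. Gene-by-gene weights called 1487 and 5787 of all genes, and without Wt 3 the fit called 30 and 4119. The cause of these differences was not tested.

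Leaving out each array in turn, Wt minus C called 0 to 5 of the genes and 0 to 12 of the probe sets. The highest counts were reached without Wt 3, where 39.6% of all genes were called and the share of all probe sets was not counted. The medians of the 10 genes ran from -0.041 to 0.28 in SKM-Tg minus Wt, from -0.40 to -0.067 in Wt minus C and from -0.015 to 0.27 in the difference of effects, with the ends reached without Wt 2 and Wt 3. Signs of uncalled values turned as follows. In SKM-KO minus C, Fundc1 ran from -0.10 to 0.062, Dnm1l from -0.054 to 0.075, Fis1 from -0.0090 to 0.013 and Opa1 from -0.018 to 0.080. In SKM-Tg minus Wt, Bnip3 ran from -0.089 to 0.21, Dnm1l from -0.039 to 0.65, Fis1 from -0.13 to 0.051, Mff from -0.044 to 0.32, Mfn1 from -0.19 to 0.25 and Opa1 from -0.076 to 0.38. In Wt minus C, Bnip3 ran from -0.30 to 0.0065 and Bnip3l from -0.18 to 0.081. In the difference of effects, Bnip3 ran from -0.22 to 0.084, Dnm1l from -0.039 to 0.65, Fis1 from -0.13 to 0.049, Mfn1 from -0.22 to 0.21 and Opa1 from -0.11 to 0.35.

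Other normalizations turned values near 0. In SKM-KO minus C, Fundc1 was 0.0014 with median centring and 0.034 as the mean of its probe sets; Dnm1l was -0.025 and Fis1 -0.013 with quantile normalization, and -0.013 and -0.0092 with cyclic loess. In SKM-Tg minus Wt, Fis1 was 0.013 with quantile normalization and 0.0029 with cyclic loess, and in the difference of effects 0.026 and 0.012. With the mean of probe sets, Mfn1 was -0.021 in the difference of effects and Bnip3l 0.014 in Wt minus C. Gene-by-gene weights gave Mfn1 -0.033 in SKM-Tg minus Wt and -0.063 in the difference, and Bnip3 0.077 in the difference. Default weights gave Bnip3 -0.043, Mfn1 -0.032 and Fis1 0.0024 in SKM-Tg minus Wt and Mfn1 -0.060 in the difference.

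With the first principal component as a covariate, chosen after seeing the data, Dnm1l was -0.0047 in SKM-KO minus C. In SKM-Tg minus Wt, Bnip3 was -0.040, Mfn1 -0.088 and Fis1 0.016, and in the difference Mfn1 was -0.12, Opa1 -0.011 and Fis1 0.013. In Wt minus C the median was 0.0080, Bnip3 0.14, Bnip3l 0.22, Mfn2 -0.048, Opa1 0.018, Fis1 -0.065 and Mff 0.021.

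Without Wt 1, Wt 2, SKM-Tg 3 and SKM-Tg 4, also chosen after seeing the data, 1 Wt array is left and is assumed to vary like the others. In SKM-Tg minus Wt the median was then -0.0067, Bnip3 -0.24, Mfn1 -0.28, Opa1 -0.030, Fis1 0.11 and Mff -0.060. In the difference Mfn1 was -0.32, Opa1 -0.065, Fis1 0.11 and Mff -0.0067. In Wt minus C the median was -0.029, Bnip3 0.21, Bnip3l 0.19, Mfn2 -0.019 and Fis1 -0.086.

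No paired analysis was possible because the array numbers follow accession order and the labels pair no arrays. The spread of 3 or 4 arrays a group, wider in Wt and SKM-Tg, limits the precision there.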
